A study of Mus musculus with 47 samples.

Results

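The comparison described here is that of doxycycline (dox) with vehicle in C2C12 iMyoD1 cells over the first 24 h of differentiation, measured by RNA-seq. C2C12 cells are immortalized myoblasts of the mouse. Their derivative C2C12 iMyoD1 holds a Halo-tagged MyoD1 under a dox-responsive promoter beside endogenous MyoD1 (labelled genotype endogenous MyoD1 + dox-inducible Halo-MyoD1). The members were chosen by their labels, as the 3 libraries given 24 h of serum starvation with 24 h of dox and the 3 given the same serum starvation with vehicle, 6 of the 47 libraries of the series. The titles call the vehicle libraries untreated, while their treatment label says vehicle. Dox or vehicle was added together with the switch from growth medium to differentiation medium, so that both groups had starved for equally long. For comparison, the same line was given dox or vehicle for 24 h in growth medium, again with 3 libraries each (called 0 h here). The transgene had been integrated by PiggyBac transposition into a selected, polyclonal population, and dox raised MyoD1 in only a fraction of the nuclei, so each dox library is a mixture of induced and uninduced cells. All 4 groups carried the transgene, and no line without it was given dox at 24 h, so an effect of dox and an effect of MyoD1 cannot be told apart.

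MyoD1 is a basic helix-loop-helix transcription factor that pairs with E-proteins and binds E-boxes, the motif CANNTG, with a preference for CAGCTG. In myoblasts it acts beside its relative Myf5, while mitogens, Myc and Id proteins hold differentiation back. After serum is withdrawn, C2C12 cells leave the cell cycle, switch on myogenin (Myog), make the fusogens myomaker (Mymk) and myomerger (Mymx), fuse, and fill with sarcomeres.

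Library totals ranged from 23424043 to 42023433 counts for dox (median 31416192) and from 25357816 to 30444909 for vehicle (median 29046860). Levels are CPM (counts scaled to a common library total, after TMM correction) and are not divided by transcript length, so they compare libraries and not genes. All 9 myoblast markers passed the filter on low counts, and their summed level was 740 to 753 CPM with dox and 798 to 818 CPM with vehicle. None of 7 endothelial markers passed it, and of 7 epithelial markers none reached 1 CPM. In bulk RNA, fewer cells of a kind and less RNA per cell cannot be told apart.

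Of 14078 genes tested, 1129 (8.02%) were upregulated and 722 (5.13%) downregulated with dox, where a call needs more than a 2-fold change and an adjusted p below 0.05. The p threshold alone was passed by 31.1% of genes upward and 31.7% downward. The errors given as ± are standard errors derived from the test statistic of each log2 fold change, with dispersion moderated across genes. They rest on 3 against 3 libraries, and for differences between dox effects on 12 libraries. Calls in opposite directions rested on unequal read depth: an upregulated gene had a median of 2.43 CPM over the 6 libraries and a downregulated gene 21.7 CPM, against 26.8 CPM for all genes tested. Above 100 CPM there were 5 upregulated and 149 downregulated genes. With vehicle, 539 of the upregulated genes lay under 1 CPM. The TMM factors of the groups did not overlap, at 1.07 to 1.09 with dox and 0.876 to 0.893 with vehicle. Scaling to the total count instead moved the median log2 fold change of all genes from -0.0024 to 0.261 and gave 1760 upregulated and 427 downregulated genes, so that 80.5% of the calls were upward in place of 61.0%. Differences below are relative to the TMM scale.

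**Figure D1:**
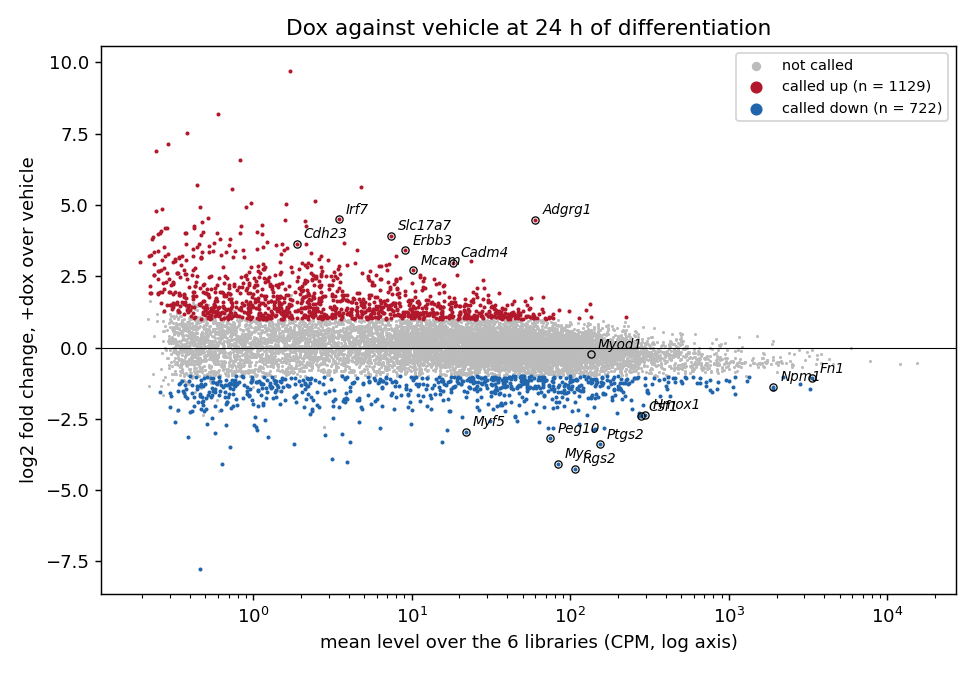
Each point is a gene, with its mean level over the 6 libraries at 24 h on a log axis in CPM and its log2 fold change, +dox over vehicle. Red marks the 1129 genes called up and blue the 722 called down, grey the rest. Adgrg1 stands at 4.47 and Rgs2 at -4.25, and to the right of 100 CPM there are 5 red and 149 blue points.

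Myod1 itself was read first. Its level (gene at chr7:46376474-46379099, plus strand, GRCm38) was 129, 123 and 116 CPM with dox and 151, 146 and 141 CPM with vehicle, so that the groups did not overlap and the dox libraries were the lower ones (log2 fold change -0.23 ± 0.06, adjusted p = 0.0041). This difference was under 2-fold and its direction depended on scaling, since scaling to the total count gave 0.04 (adjusted p = 0.62). Whether the reference held the Halo-MyoD1 transgene is not given in the sources used here, so these counts do not check the induction.

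The other myogenic factors moved unevenly. Myf5, which specifies myoblasts together with MyoD1, was at 4.9, 4.86 and 5.06 CPM with dox and 38.7, 36 and 42.2 CPM with vehicle. Every dox library was far below every vehicle library (log2 fold change -2.96 ± 0.09, adjusted p = 2.3e-10). Myog, the factor of early differentiation, was at 4.2, 4.15 and 3.77 CPM with dox and 5.09, 5.43 and 5.4 CPM with vehicle, a difference in the same direction that stayed under 2-fold (log2 fold change -0.38 ± 0.12, adjusted p = 0.018). Mef2a, a MADS-box partner of the myogenic factors, was at 98.8 to 102 CPM with dox and 91.1 to 101 CPM with vehicle and did not pass the test (log2 fold change 0.11 ± 0.05, adjusted p = 0.093). Mef2b, another member of the Mef2 family, was called up at 0.705, 0.784 and 1.07 CPM with dox and 0, 0 and 0.263 CPM with vehicle (adjusted p = 0.0020). Its exons share 62 bases with Borcs8 on the same strand. In all, 1 of the 6 tested members of the list of myogenic regulatory factors and Mef2 was upregulated and 1 downregulated, beside 8.02% and 5.13% of all genes. The list's median log2 fold change was -0.10 beside -0.0024 for all genes (0.16 beside 0.261 when scaled to the total count, and -0.308 without the filter on low counts).

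Among E-proteins, Id proteins and related repressors, 1 of 15 tested was called, downward, near the 5.13% of all genes. The called gene was Snai2, a zinc-finger repressor that competes for E-boxes, at 19, 18 and 19.3 CPM with dox and 133, 139.9 and 137 CPM with vehicle (log2 fold change -2.84 ± 0.06, adjusted p = 1.7e-11). The E-proteins Tcf3 and Tcf12, with which MyoD1 pairs, had log2 fold changes of 0.01 ± 0.05 and -0.10 ± 0.06, and neither passed the test (adjusted p = 0.92 and 0.19). None of 9 genes in a list of Pax and Eya factors and their partners was called. Pax7, the satellite cell factor, was at 21.6, 22.3 and 24.5 CPM with dox and 10.9, 12.8 and 11.5 CPM with vehicle, just under 2-fold (log2 fold change 0.98 ± 0.09, adjusted p = 1.7e-06), and 1 member of this list was called in each direction when dox replicate 1 was left out and 1 upward when vehicle replicate 2 was.

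The fusogens were not called. Mymk was at 1.85, 2 and 2.45 CPM with dox and 1.64, 2.43 and 2.29 CPM with vehicle, with overlapping groups (log2 fold change 0.01 ± 0.21, adjusted p = 0.97). Mymx was at 1.12, 1.06 and 0.959 CPM with dox and 0.796, 0.848 and 0.788 CPM with vehicle, where the dox libraries were higher without passing the test (log2 fold change 0.38 ± 0.27, adjusted p = 0.24). Of 20 genes linked to fusion, 3 were upregulated and none downregulated, or 1 downregulated without the filter on low counts, beside 8.02% and 5.13% of all genes. At the p threshold alone 8 were higher and 5 lower, beside 31.1% and 31.7% of all genes. The median was 0.16, or 0.371 without the filter. Npnt, a ligand of integrin alpha 8, was at 17.4, 19.3 and 19 CPM with dox and 4.25, 5.16 and 4.65 CPM with vehicle, with dox well above vehicle (log2 fold change 2.00 ± 0.10, adjusted p = 1.4e-08). The second was Cdh15 (M-cadherin), given with the adhesion genes below, and the third Fer1l5, a ferlin at low counts, with at most 2.41 CPM (log2 fold change 1.19 ± 0.24, adjusted p = 0.00084). Cd81 and Myof, the members with the highest CPM, differed by 0.41 ± 0.06 and -0.44 ± 0.07, under 2-fold in either direction.

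Sarcomere genes were called about as often as genes at large, with 2 up and 1 down of 24 tested beside 8.02% and 5.13% of all genes (median 0.36). There were 4 up when vehicle replicate 1 was left out. Actn3, the fast-fibre alpha-actinin, was at 18.8, 18.5 and 18.3 CPM with dox and 5.93, 6.32 and 5.7 CPM with vehicle, a clear gap between the groups (log2 fold change 1.65 ± 0.09, adjusted p = 1.9e-08). Myom2, an M-band protein, was at 3.2, 4.39 and 3.03 CPM with dox and 10.7, 11.5 and 11.4 CPM with vehicle and fell (log2 fold change -1.66 ± 0.14, adjusted p = 7.3e-07). Desmin (Des), the muscle intermediate filament, was at 249, 258 and 262 CPM with dox and 177, 188 and 199.9 CPM with vehicle, higher in every dox library by less than 2-fold (log2 fold change 0.47 ± 0.06, adjusted p = 2.5e-05).

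Of 12 genes of the neuromuscular junction, 6 were upregulated and 1 downregulated, beside 8.02% and 5.13% of all genes, with a median of 0.81. Chrnb1, the beta subunit of the muscle acetylcholine receptor, was at 87.6, 85.3 and 87.8 CPM with dox and 26.8, 28.3 and 24.7 CPM with vehicle (log2 fold change 1.73 ± 0.06, adjusted p = 6.8e-10). Dok7, the adaptor that activates the kinase MuSK, was at 5.34, 5.33 and 5.26 CPM with dox and 0.929, 1.27 and 0.938 CPM with vehicle (log2 fold change 2.36 ± 0.17, adjusted p = 2.3e-07). Agrn, the nerve-derived ligand of this pathway, was at 109.8, 108 and 107 CPM with dox and 51.1, 46 and 47.3 CPM with vehicle (log2 fold change 1.19 ± 0.05, adjusted p = 5e-09). All 3 were higher in every dox library than in any vehicle library. Musk (1.02 ± 0.14), the scaffold Rapsn (1.01 ± 0.07) and acetylcholinesterase Ache (2.10 ± 0.38) completed the group on the log2 scale, Musk and Rapsn just past the threshold of 2-fold.

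Of 19 genes of excitation-contraction coupling, 5 were upregulated and none downregulated, beside 8.02% and 5.13% of all genes (median 0.27). Jsrp1, a junctional reticulum protein, was at 4.87, 6.04 and 5.89 CPM with dox and 1.02, 1.23 and 0.488 CPM with vehicle (log2 fold change 2.64 ± 0.25, adjusted p = 1.9e-06). Stac3, which couples the voltage sensor to the release channel, was at 6.23, 5.56 and 6.34 CPM with dox and 0.531, 1 and 1.5 CPM with vehicle (log2 fold change 2.57 ± 0.25, adjusted p = 2.4e-06). Ryr1, the release channel itself, was at 3.96, 4.31 and 3.48 CPM with dox and 0.84, 0.809 and 0.638 CPM with vehicle (log2 fold change 2.38 ± 0.20, adjusted p = 9e-07). These 3 genes had at most 1.5 CPM in any vehicle library. The calcium pump Atp2a2, with the highest CPM of the list, had a log2 fold change of -0.16 ± 0.07 (adjusted p = 0.049), which turned to 0.10 under scaling to the total count. Sgca, which encodes alpha-sarcoglycan of the dystrophin complex, was at 12.9, 16 and 14.5 CPM with dox and 1.19, 2.04 and 1.43 CPM with vehicle and was among the 8 largest increases above the 5 CPM limit (log2 fold change 3.22 ± 0.17, adjusted p = 1.3e-08).

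**Figure D2:**
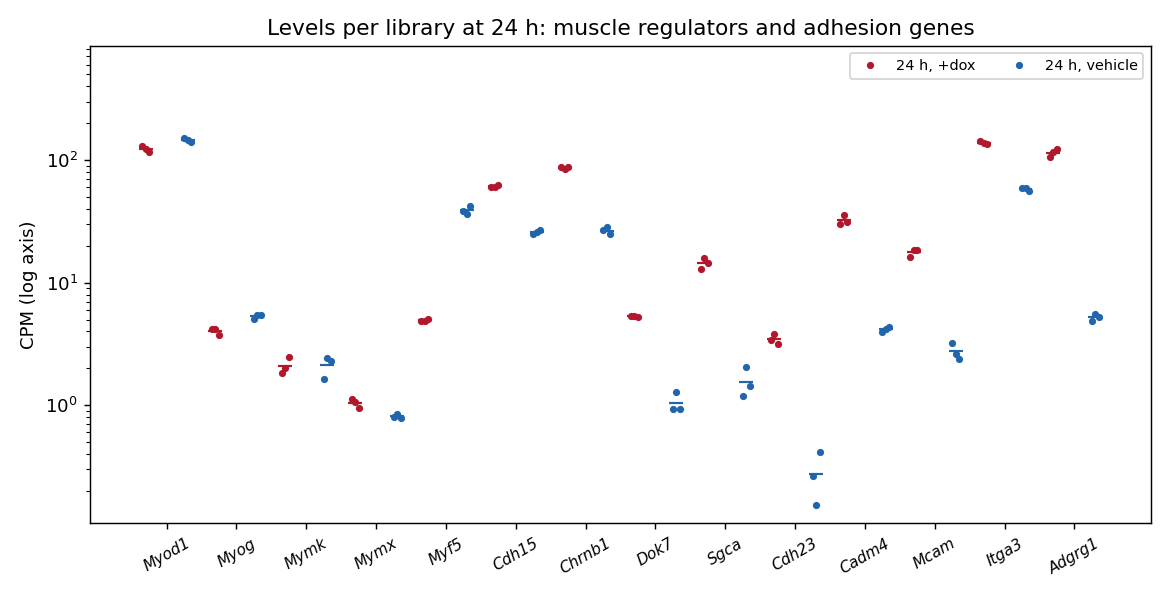
Levels in CPM on a log axis of 14 genes in the 3 dox (red) and 3 vehicle (blue) libraries at 24 h, with a bar at each mean. Mymk overlaps between the groups, Myod1, Myog and Myf5 are lower with dox, and Adgrg1 goes from 4.86 to 5.55 CPM with vehicle to 107 to 122 CPM with dox.

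Cell adhesion genes were read by family, with members called in both directions in some of them. The study singled out Cdh23, Cadm4, Itga3, Mcam and Cdh15 in part from these libraries, so their direction is not independent evidence. Cdh23, an atypical cadherin known from the hair cells of the ear (gene at chr10:60302748-60696490, minus strand), was at 3.44, 3.84 and 3.19 CPM with dox and 0.265, 0.154 and 0.413 CPM with vehicle (log2 fold change 3.64 ± 0.29, adjusted p = 5.1e-07). Cadm4, an immunoglobulin-type adhesion molecule, was at 30.3, 35.4 and 31.4 CPM with dox and 3.94, 4.2 and 4.39 CPM with vehicle (log2 fold change 2.97 ± 0.10, adjusted p = 5.6e-10). Mcam (CD146), of the same superfamily, was at 16.3, 18.4 and 18.6 CPM with dox and 3.23, 2.62 and 2.4 CPM with vehicle (log2 fold change 2.72 ± 0.12, adjusted p = 4.3e-09). In these 3 genes each dox library exceeded each vehicle library by several-fold. Itga3, the laminin-binding alpha 3 integrin, was at 142, 137 and 135 CPM with dox and 58.8, 59.7 and 55.6 CPM with vehicle (log2 fold change 1.27 ± 0.05, adjusted p = 2.6e-09). Cdh15, the M-cadherin of myoblast contacts, was at 59.8, 60.8 and 62.1 CPM with dox and 25, 25.7 and 27 CPM with vehicle (log2 fold change 1.25 ± 0.06, adjusted p = 4.6e-09). Both had wide gaps between the groups.

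Around these genes, 5 of 25 cadherins and catenins were upregulated and 2 downregulated, beside 8.02% and 5.13% of all genes. At the p threshold alone 10 cadherins and catenins were higher and 6 lower, beside 31.1% and 31.7% of all genes. Their median, 0.14, was 0.355 without the filter on low counts, 0.0893 in the fit on 12 libraries, 0.224 without vehicle replicate 2, 0.0581 without vehicle replicate 3 and 0.0878 without dox replicate 2. Celsr1, an atypical cadherin of planar polarity, rose from at most 0.531 to at least 2.26 CPM (log2 fold change 2.57 ± 0.26, adjusted p = 3.4e-06). The protocadherin Pcdh18 was at 8.72, 8.86 and 9.03 CPM with dox and 26.6, 27.8 and 25.7 CPM with vehicle and fell (log2 fold change -1.57 ± 0.08, adjusted p = 9.7e-09). The catenins Ctnnb1 and Ctnna1, which link cadherins to actin, had log2 fold changes of 0.26 ± 0.06 and -0.21 ± 0.05. Of 17 integrin subunits, 4 were upregulated and none downregulated (1 without the filter on low counts), beside 8.02% and 5.13% of all genes. The median of the integrin subunits was 0.41. Those upregulated were Itga3, Itgb4 (1.43 ± 0.16), the collagen-binding Itga1 (1.22 ± 0.12) and Itgae (1.81 ± 0.38). Itgb1, the common beta subunit, was at 497, 496 and 516 CPM with dox and 531, 453 and 468 CPM with vehicle and did not pass the test (log2 fold change 0.08 ± 0.06, adjusted p = 0.31).

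Of 28 immunoglobulin-type adhesion genes, 9 were upregulated and 2 downregulated, beside 8.02% and 5.13% of all genes (median 0.47). At the p threshold alone 15 were higher and 10 lower, beside 31.1% and 31.7%, so the number lower was near the share over all genes. Bcam, a laminin receptor, was at 18, 19.7 and 19.7 CPM with dox and 2.96, 3.66 and 3.34 CPM with vehicle (log2 fold change 2.54 ± 0.11, adjusted p = 3e-09). Nectin2, which binds other nectins across contacts, was at 31.7, 33 and 32.1 CPM with dox and 13.8, 12.1 and 13.1 CPM with vehicle (log2 fold change 1.34 ± 0.07, adjusted p = 2.1e-08). Against this direction, Ncam1, the neural cell adhesion molecule of myoblasts, was at 87.5, 91.5 and 89.3 CPM with dox and 129, 147 and 120.1 CPM with vehicle, lower in every dox library by less than 2-fold (log2 fold change -0.54 ± 0.07, adjusted p = 3e-05). Its relative Ncam2 fell at low counts (log2 fold change -2.04 ± 0.34, adjusted p = 0.00025). Among 17 tight and gap junction genes, 6 were upregulated and 1 downregulated, the latter at about the 5.13% of all genes and the former beside 8.02%. Their median, 0.16, was 1.16 without the filter on low counts, 0.490 without vehicle replicate 2, 0.312 without dox replicate 3, 0.0679 without dox replicate 1, and 0.0462 and 0.0977 without vehicle replicates 1 and 3. The tight junction scaffold Tjp3 was at 3.38, 2.94 and 3.03 CPM with dox and 0.0442, 0.193 and 0.0375 CPM with vehicle (log2 fold change 5.03 ± 0.38, adjusted p = 3.3e-07). Gja4 (connexin 37), known from endothelial gap junctions, was at 0.822, 1.02 and 1.09 CPM with dox and 0, 0.154 and 0.075 CPM with vehicle (log2 fold change 3.58 ± 0.55, adjusted p = 0.00013). With vehicle, Tjp3 was near the limit of detection, where 3 counts correspond to between 0.113 and 0.133 CPM. None of 7 endothelial markers reached 1 CPM in any of the 6 libraries. Tjp3 shares 40 exonic bases with Apba3 on the opposite strand, and the counting is not stated to use strand. Gja1 (connexin 43), the abundant gap junction gene, went the other way, at 46.4, 39.9 and 44.7 CPM with dox and 101, 98.2 and 91.3 CPM with vehicle (log2 fold change -1.12 ± 0.06, adjusted p = 2.7e-08).

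Of 12 adhesion G protein-coupled receptors, 3 were upregulated and none downregulated, beside 8.02% and 5.13% of all genes. Their median was 0.10, 0.598 without the filter on low counts, 0.0534 in the fit on 12 libraries, 0.191 without dox replicate 3 and 0.174 without vehicle replicate 3. Adgrg1, whose product GPR56 binds matrix ligands (gene at chr8:94974751-95014217, plus strand), was at 107, 117 and 122 CPM with dox and 4.86, 5.55 and 5.29 CPM with vehicle. It had the largest increase of the named genes whose 6 libraries averaged 5 CPM or more, and every dox library was far above the vehicle libraries (log2 fold change 4.47 ± 0.08, adjusted p = 7.4e-12). Adgrl1, a latrophilin that binds teneurins, was at 199.5, 189 and 199 CPM with dox and 75, 72 and 61.5 CPM with vehicle (log2 fold change 1.52 ± 0.07, adjusted p = 4.9e-09).

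Since E-boxes are the sites that MyoD1 binds, promoter windows of a few upregulated genes are shown, each from 250 bases before to 50 after an annotated start (RefSeq, GRCm38.p6). Both Adgrg1 windows held the wider motif CANNTG, in capitals here, which 69.6% of 23295 windows held; in the first of them it begins 206 and 61 bases before the start and in the second 154 bases before it.
Adgrg1 chr8:94976859-94977158, plus strand: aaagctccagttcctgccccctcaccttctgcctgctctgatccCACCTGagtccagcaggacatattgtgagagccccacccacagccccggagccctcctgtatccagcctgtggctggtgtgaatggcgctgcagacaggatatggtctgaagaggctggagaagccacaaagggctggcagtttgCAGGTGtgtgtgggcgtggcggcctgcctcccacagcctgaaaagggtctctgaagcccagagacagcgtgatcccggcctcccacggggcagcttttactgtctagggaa
Adgrg1 chr8:94984149-94984448, plus strand: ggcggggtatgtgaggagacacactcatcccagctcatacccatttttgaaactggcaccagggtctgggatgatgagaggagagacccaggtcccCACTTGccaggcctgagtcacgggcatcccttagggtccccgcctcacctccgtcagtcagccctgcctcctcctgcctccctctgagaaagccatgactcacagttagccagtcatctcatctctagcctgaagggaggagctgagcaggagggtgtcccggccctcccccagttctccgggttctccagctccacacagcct

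Other upregulated genes are shown for CAGCTG, in capitals below, which occurred in 15.9% of all windows on either strand: Itga1, the bone morphogenetic protein antagonist Chrd and the cytokine Il11. They were chosen after their values were seen, because a window of theirs holds the motif, and a second Il11 window does not. Of the 43 named upregulated genes, 33 had a window and 3 of these held CAGCTG; neither Adgrg1 nor the other 6 with a window among the 8 largest increases did. Over all upregulated genes, 227 of 1093 windows held it. Windows were found for only 819 of these 1129 genes, so a comparison with other genes is void and none is made.
Itga1 chr13:115101915-115102214, minus strand: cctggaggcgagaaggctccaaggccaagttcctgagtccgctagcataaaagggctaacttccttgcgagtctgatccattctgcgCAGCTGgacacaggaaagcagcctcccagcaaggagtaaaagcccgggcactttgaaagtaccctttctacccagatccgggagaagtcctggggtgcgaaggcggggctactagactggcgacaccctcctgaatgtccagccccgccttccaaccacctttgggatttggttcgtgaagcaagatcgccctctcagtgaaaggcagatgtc
Chrd chr16:20732877-20733176, plus strand: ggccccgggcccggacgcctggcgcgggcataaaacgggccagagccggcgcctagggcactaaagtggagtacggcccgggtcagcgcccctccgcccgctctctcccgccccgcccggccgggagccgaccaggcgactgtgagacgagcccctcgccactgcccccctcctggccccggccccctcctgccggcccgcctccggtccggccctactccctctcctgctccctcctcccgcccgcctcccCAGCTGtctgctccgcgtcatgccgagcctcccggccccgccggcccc
Il11 chr7:4782808-4783107, minus strand: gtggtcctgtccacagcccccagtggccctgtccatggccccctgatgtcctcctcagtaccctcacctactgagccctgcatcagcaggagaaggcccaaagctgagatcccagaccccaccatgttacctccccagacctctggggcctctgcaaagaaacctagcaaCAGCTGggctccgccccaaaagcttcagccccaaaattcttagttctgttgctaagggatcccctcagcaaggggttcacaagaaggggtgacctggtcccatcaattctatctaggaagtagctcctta

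Some genes known from neurons and glia were also among the largest increases. Slc17a7, the vesicular glutamate transporter VGLUT1, was at 14, 13.6 and 14.2 CPM with dox and 0.619, 1.27 and 0.863 CPM with vehicle (log2 fold change 3.92 ± 0.17, adjusted p = 3.6e-09). Hap1, the huntingtin-associated protein, was at 40.1, 43.2 and 42.9 CPM with dox and 5.26, 4.74 and 5.7 CPM with vehicle (log2 fold change 3.02 ± 0.09, adjusted p = 1.6e-10). Erbb3, a neuregulin receptor and Schwann cell marker, was at 18.1, 16.3 and 15.6 CPM with dox and 1.95, 1.54 and 1.31 CPM with vehicle (log2 fold change 3.41 ± 0.14, adjusted p = 2.2e-09). In all 3 the vehicle libraries stayed at 5.7 CPM or less and the dox libraries at 13.6 CPM or more. Of 31 synaptic and neuronal genes, 8 were upregulated and 4 downregulated, beside 8.02% and 5.13% of all genes (median 0.66). Mapt, the microtubule protein tau, was at 4.11, 4.55 and 5.22 CPM with dox and 0.575, 0.462 and 0.6 CPM with vehicle (log2 fold change 3.10 ± 0.20, adjusted p = 9.2e-08). Dlg4, a postsynaptic scaffold, was at 46.4, 46.2 and 47.7 CPM with dox and 14.2, 17.4 and 15.5 CPM with vehicle (log2 fold change 1.59 ± 0.07, adjusted p = 5.3e-09). Those that fell included Dpysl3, an axon growth protein, at 115, 110.2 and 111 CPM with dox and 291, 305 and 271 CPM with vehicle (log2 fold change -1.35 ± 0.06, adjusted p = 3.2e-09), and Gap43 (-1.67 ± 0.13). Markers of neurons as cells did not follow the rise: their summed level was 75.6 to 81.3 CPM with dox and 129 to 135 CPM with vehicle, 4 of 8 were under 1 CPM in all 6 libraries, and Snap25 and Elavl4 were at 0. Of 7 Schwann cell markers, 5 were under 1 CPM in all 6 libraries. The summed level of all 7 was 18.0 to 20.1 CPM with dox, most of it Erbb3. With vehicle the sum was 3.34 to 4.91 CPM, of which Erbb3 made up 1.31 to 1.95 CPM.

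Guidance molecules moved both ways, with 9 up and 9 down of 44 semaphorin, plexin, ephrin and Eph genes, beside 8.02% and 5.13% of all genes (median 0.32). Sema5b rose from at most 0.0442 CPM (3 counts or fewer in every vehicle library) to at least 0.959 CPM in every dox library. The ephrins Efna3 (2.07 ± 0.12) and Efna2 (1.52 ± 0.10) and the plexin Plxnd1 (1.35 ± 0.06) rose. Nrp2, the semaphorin co-receptor neuropilin 2, was at 64.8, 67.4 and 63 CPM with dox and 249.9, 219 and 201 CPM with vehicle and fell (log2 fold change -1.76 ± 0.07, adjusted p = 3.1e-09), as did Sema5a (-1.55 ± 0.09) and Epha4 (-1.40 ± 0.12). The receptor gene with the highest CPM, Plxnb2, had a log2 fold change of 0.21 ± 0.07.

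Myc, the growth-promoting transcription factor (gene at chr15:61985391-61990374, plus strand), was at 10.1, 9.09 and 8.61 CPM with dox and 166, 150.3 and 155 CPM with vehicle, and no dox library came near the vehicle libraries (log2 fold change -4.07 ± 0.07, adjusted p = 7.4e-12). Its relative Mycl fell as well, from at least 5.7 to at most 1.92 CPM (log2 fold change -1.76 ± 0.15, adjusted p = 7.8e-07). Mxd4, an antagonist of Myc, was at 173, 177 and 183 CPM with dox and 123, 121 and 119.7 CPM with vehicle, higher with dox by less than 2-fold (log2 fold change 0.57 ± 0.05, adjusted p = 9.4e-07). No further member of the 11 in the Myc family list was called, except 1 upward call when vehicle replicate 2 was left out.

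Genes of ribosome biogenesis, a process that Myc is known to drive, were lower throughout. All 54 tested passed the p threshold downward, 43 of them with more than a 2-fold decrease, beside 31.7% and 5.13% of all genes, and the median was -1.40. The summed level of the list was 4716 to 4885 CPM with dox and 12491 to 12906 CPM with vehicle. Gnl3 (nucleostemin), a nucleolar GTPase, was at 44.1, 37.8 and 41.4 CPM with dox and 218, 208 and 214 CPM with vehicle (log2 fold change -2.35 ± 0.06, adjusted p = 1.1e-10). Npm1, a nucleolar chaperone of ribosome assembly, was at 1041, 1035 and 1055 CPM with dox and 2603, 2707 and 2946 CPM with vehicle (log2 fold change -1.38 ± 0.06, adjusted p = 5.7e-09). Ncl (nucleolin), an abundant nucleolar protein, was at 598, 594 and 649 CPM with dox and 1342, 1408 and 1436 CPM with vehicle (log2 fold change -1.16 ± 0.06, adjusted p = 1.5e-08). The box C/D snoRNP protein Nop56 (-2.01 ± 0.05) and the pseudouridine synthase Dkc1 (-2.24 ± 0.07) fell as far. The decrease of the smallest size was -0.39. Scaled to the total count, the median of the list was -1.13, or -1.39 relative to that of all genes.

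The cell cycle lists did not share this change. None of 49 mitosis genes and none of 50 genes of DNA replication and S phase was called by edgeR, with medians of -0.04 and -0.14 (0.23 and 0.13 when scaled to the total count). The first was -0.0837 in the fit on 12 libraries and -0.0241 without vehicle replicate 1, and the second -0.0913 without dox replicate 3. At the p threshold alone, 11 mitosis genes were higher and 17 lower, and 10 S-phase genes were higher and 21 lower, beside 31.1% and 31.7% of all genes. Top2a and Mki67, both marks of cycling cells, had log2 fold changes of 0.08 ± 0.05 and 0.23 ± 0.08. Pcna, the replication clamp, was at 139, 150.2 and 143 CPM with dox and 201, 221 and 244 CPM with vehicle, lower by less than 2-fold (log2 fold change -0.60 ± 0.07, adjusted p = 1.7e-05). Around the G1 transition, 2 of 13 genes rose and 2 fell, beside 8.02% and 5.13% of all genes (1 fell when vehicle replicate 1 was left out). Ccnd1, cyclin D1, was at 16.7, 18.4 and 18.7 CPM with dox and 54.5, 48.4 and 50.9 CPM with vehicle (log2 fold change -1.49 ± 0.07, adjusted p = 3.9e-09); it shares 1100 exonic bases with LTO1 on the opposite strand. Cdk4, its kinase partner, was at 215, 220.4 and 217 CPM with dox and 401, 401 and 429 CPM with vehicle (log2 fold change -0.90 ± 0.05, adjusted p = 5e-08). Cdk4 shares 641 exonic bases with Tspan31 on the opposite strand. Cdkn1a, the p21 inhibitor induced in differentiating myoblasts, was at 409.8, 388 and 402 CPM with dox and 581, 624 and 633 CPM with vehicle, lower in every dox library by less than 2-fold (log2 fold change -0.59 ± 0.06, adjusted p = 3.1e-06). The inhibitors Cdkn2d (1.22 ± 0.08) and Cdkn1c (1.23 ± 0.21) rose.

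Feedback genes of the ERK pathway fell more often than they rose, with 12 down and 3 up of 32 tested, beside 5.13% and 8.02% of all genes (median -0.40). Rgs2, a GTPase activator that shortens G protein signals (gene at chr1:143999338-144004161, minus strand), was at 10.5, 10.3 and 11 CPM with dox and 205, 203 and 207 CPM with vehicle, the largest decrease among the named genes (log2 fold change -4.25 ± 0.06, adjusted p = 9.4e-13). The phosphatase Dusp4 was at 1.23, 1.69 and 1.05 CPM with dox and 9.24, 7.28 and 7.61 CPM with vehicle (log2 fold change -2.61 ± 0.18, adjusted p = 1.6e-07). Ereg (epiregulin), a ligand of the EGF receptor, was at 14.7, 14.8 and 13.1 CPM with dox and 61.6, 57.1 and 56.5 CPM with vehicle (log2 fold change -2.02 ± 0.07, adjusted p = 5.6e-10). Areg (-1.99 ± 0.19), the urokinase receptor Plaur (-1.83 ± 0.07) and Spry1 (-1.97 ± 0.31) fell too, while Spred3, an inhibitor of the same pathway, rose (log2 fold change 1.60 ± 0.13, adjusted p = 6.5e-07).

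Of 28 immediate-early genes, 5 fell and 2 rose, beside 5.13% and 8.02% of all genes, so the number that rose was near that share. Their median (-0.15) turned to 0.11 under scaling to the total count and was -0.246 without dox replicate 2, -0.102 without dox replicate 1 and -0.0625 without vehicle replicate 3. Klf4 was at 18.4, 18.1 and 16.6 CPM with dox and 108, 109 and 112 CPM with vehicle (log2 fold change -2.61 ± 0.06, adjusted p = 6.1e-11). Atf3, a stress-induced member of the AP-1 group, was at 17.7, 17.8 and 16.6 CPM with dox and 91.4, 88.2 and 81.6 CPM with vehicle (log2 fold change -2.31 ± 0.06, adjusted p = 1.3e-10). Fosl1 (-2.21 ± 0.09), Klf6 (-1.74 ± 0.05) and Fosl2 (-1.59 ± 0.05) fell with them, and Fosb (1.42 ± 0.23) and Arc (1.13 ± 0.17) rose at under 5 CPM. Fosl1 shares 1163 exonic bases with Ccdc85b on the opposite strand. Junb and Jund, the members with the highest CPM, had log2 fold changes of -0.61 ± 0.05 and -0.32 ± 0.05.

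Several secreted signals were lower with dox, while the matrix lists moved in different directions. Ptgs2 (cyclooxygenase 2), which makes prostaglandin precursors, was at 27, 23.1 and 28.3 CPM with dox and 309.7, 254 and 276 CPM with vehicle (log2 fold change -3.39 ± 0.09, adjusted p = 1.1e-10). Grem1, a secreted antagonist of bone morphogenetic proteins, was at 31.9, 32.9 and 32.8 CPM with dox and 268, 226 and 238 CPM with vehicle (log2 fold change -2.89 ± 0.07, adjusted p = 6.1e-11). Csf1, the macrophage growth factor, was at 89.9, 84.8 and 88.8 CPM with dox and 479, 493 and 440.2 CPM with vehicle (log2 fold change -2.40 ± 0.06, adjusted p = 9.2e-11). In none of these did the groups come within 2-fold of each other. Of 21 chemokines and cytokines, 8 fell and 1, Il11, rose, beside 5.13% and 8.02% of all genes (median -0.56, or -0.307 without the filter), and of those that fell, Cxcl1 and Ccl7 were under 6 CPM throughout. Of 20 prostaglandin and related genes, 3 fell and 2 rose, or 4 rose without the filter, beside the same shares (median -0.10, or 0.17 on the total count scale and -0.171 without vehicle replicate 2).

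Of 30 matrix proteases, inhibitors and matricellular genes, 11 fell and 3 rose, beside 5.13% and 8.02% of all genes, so the number that rose was near that share (median -0.68). The protease Adamts1 was at 14.1, 12.3 and 13.9 CPM with dox and 62.4, 59.7 and 69.1 CPM with vehicle (log2 fold change -2.22 ± 0.08, adjusted p = 5.7e-10). The proteoglycan Vcan (versican) was at 55.5, 54.6 and 50.5 CPM with dox and 255, 214 and 218 CPM with vehicle (log2 fold change -2.08 ± 0.07, adjusted p = 8.1e-10). Spp1 (osteopontin), a secreted phosphoprotein, was at 89.7, 85.7 and 92.4 CPM with dox and 389.9, 372 and 441 CPM with vehicle (log2 fold change -2.15 ± 0.07, adjusted p = 4.8e-10). Spp1 is also a marker of osteoblasts, of which 4 of 8 markers were under 1 CPM in all 6 libraries and Ibsp was at 0. Of the 4 that were tested, 3 were lower at the p threshold, and the summed level of all 8 was 112 to 118 CPM with dox and 424 to 487 CPM with vehicle, with Spp1 the largest part; the part of such cells in the result was not tested. Sparc, a collagen-binding protein, differed by -0.38 ± 0.06. Collagens were divided, with 3 up and 3 down of 25 beside those shares (median 0.47). Col3a1 was at 544, 531 and 519 CPM with dox and 1703, 1598 and 1676 CPM with vehicle (log2 fold change -1.62 ± 0.06, adjusted p = 8.6e-10). Col1a2 was at 354, 378 and 376 CPM with dox and 889, 915 and 871 CPM with vehicle (log2 fold change -1.25 ± 0.06, adjusted p = 5e-09). These members had the highest CPM, whereas Col16a1 (1.26 ± 0.13) and Col8a2 (1.68 ± 0.23) rose. Of 21 laminin and basement membrane genes, 3 rose and 1 fell, beside 8.02% and 5.13% of all genes, so the number that fell was about that share. Those that rose were Sgca, Lamb3 (1.72 ± 0.14) and Agrn, which was also counted among the neuromuscular junction genes. Nid1 (nidogen), which ties laminin to collagen IV, was at 92.3, 89.9 and 88.8 CPM with dox and 505, 434 and 417 CPM with vehicle and fell (log2 fold change -2.30 ± 0.07, adjusted p = 3e-10).

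The counts of growth factor and related genes stand beside 5.13% down and 8.02% up over all genes. Of 28 genes of TGF-beta, activin and BMP signalling, 4 fell and 2 rose, the latter near that share (median -0.19, or 0.08 on the total count scale and -0.0745 without vehicle replicate 2), and the 2 risers were the secreted Chrd and Gdf11 (1.84 ± 0.11 and 1.51 ± 0.07). In the IGF system 3 of 14 fell and none rose. Their median was -0.13, 0.13 on the total count scale, -0.0845 without vehicle replicate 2 and -0.212 without vehicle replicate 3. Igfbp5, a binding protein that muscle cells secrete, was at 439, 452 and 445 CPM with dox and 1252, 1348 and 1118 CPM with vehicle (log2 fold change -1.46 ± 0.07, adjusted p = 8.4e-09). Of 28 genes of the SRF and smooth-muscle group 3 rose and 2 fell. Their median was -0.07, 0.20 on the total count scale, 0.02 without the filter on low counts and -0.119 in the fit on 12 libraries. It was -0.138 and 0.0213 without vehicle replicates 1 and 2, and -0.127 and -0.0074 without dox replicates 2 and 3. Ankrd1, a target of YAP and SRF, was at 38, 38.5 and 41.6 CPM with dox and 279, 285 and 294 CPM with vehicle and fell (log2 fold change -2.84 ± 0.06, adjusted p = 2.1e-11). The regulators Cited2 (-2.85 ± 0.06), Sp8 (-3.30 ± 0.09) and the imprinted Peg10 (-3.19 ± 0.08) were among the 8 largest decreases above the 5 CPM limit. Of 20 Notch pathway genes, 5 rose and 3 fell, beside 8.02% and 5.13% of all genes (median 0.51). Jag1, a ligand, was at 2.73, 2.31 and 2.34 CPM with dox and 10.1, 11.6 and 9.64 CPM with vehicle (log2 fold change -2.06 ± 0.13, adjusted p = 5e-08). Rbpj, the DNA-binding factor of the pathway, was at 46.7, 47.6 and 48.2 CPM with dox and 128, 147 and 130.2 CPM with vehicle (log2 fold change -1.49 ± 0.06, adjusted p = 2.9e-09). Mfng, a glycosyltransferase acting on Notch, had 0 counts in every vehicle library and 0.446 to 0.705 CPM with dox, which made it at least 4.82-fold higher when vehicle was set to a floor of 3 counts per library.

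Interferon response and antigen presentation genes were called upward only, 11 up and none down of 32 tested beside 8.02% and 5.13% of all genes, with a median of 0.67. In all, 24 passed the p threshold alone, all upward, beside 31.1% of all genes. Irf7, the factor that amplifies interferon signals, was at 5.49, 6.58 and 7.81 CPM with dox and 0.354, 0.347 and 0.188 CPM with vehicle (log2 fold change 4.50 ± 0.24, adjusted p = 1.9e-08). The RNA sensor Dhx58 was at 5.08, 5.56 and 6.02 CPM with dox and 1.11, 0.886 and 0.975 CPM with vehicle (log2 fold change 2.51 ± 0.17, adjusted p = 1e-07). Ddx58 (RIG-I), another RNA sensor, was at 35.6, 41.3 and 46.6 CPM with dox and 15.4, 14.8 and 17.1 CPM with vehicle (log2 fold change 1.40 ± 0.10, adjusted p = 1.4e-07). Dox replicate 3 was highest and replicate 1 lowest in these 3 genes, but the groups did not overlap. The antigen-presentation gene H2-K1 was at 208, 211 and 209 CPM with dox and 117, 133 and 127 CPM with vehicle, under 2-fold (log2 fold change 0.75 ± 0.06, adjusted p = 4e-07), and B2m did not pass the test (log2 fold change 0.15 ± 0.06, adjusted p = 0.057). Of 7 macrophage markers, 4 were tested and 1 rose, Lyz2, from at most 0.563 to at most 2.06 CPM; their summed level was 15.9 to 17.7 CPM with dox and 15.8 to 18.6 CPM with vehicle.

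Stress and metabolism gave a mixed picture. Of 26 ATF4 targets and amino acid genes, which the integrated stress response turns on, 9 fell and none rose, and 25 passed the p threshold downward, beside 5.13% and 31.7% of all genes (median -0.83). Fgf21, a stress-induced hormone, was at 29.2, 31.1 and 34.1 CPM with dox and 94.3, 108 and 109.9 CPM with vehicle (log2 fold change -1.71 ± 0.08, adjusted p = 4.6e-09). Gdf15, a cytokine of the same response, was at 101, 106 and 107 CPM with dox and 239, 227 and 236 CPM with vehicle (log2 fold change -1.14 ± 0.05, adjusted p = 4.6e-09). Atf4 itself was at 666, 665 and 695 CPM with dox and 1194, 1157 and 1235 CPM with vehicle, under 2-fold (log2 fold change -0.80 ± 0.06, adjusted p = 1.7e-07). None of 32 cholesterol and fatty acid synthesis genes was called by edgeR (median 0.24). Of these, 18 were higher and 7 lower at the p threshold alone, beside 31.1% and 31.7% of all genes. None of 13 mitochondrially encoded genes was called (median -0.17, or 0.09 on the total count scale). At the p threshold alone 1 was higher and 4 lower, beside 31.1% and 31.7% of all genes, so the number lower was near that share. In this list mt-Co1 was lower in every dox library (log2 fold change -0.58 ± 0.07, adjusted p = 1.1e-05).

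**Figure D3:**
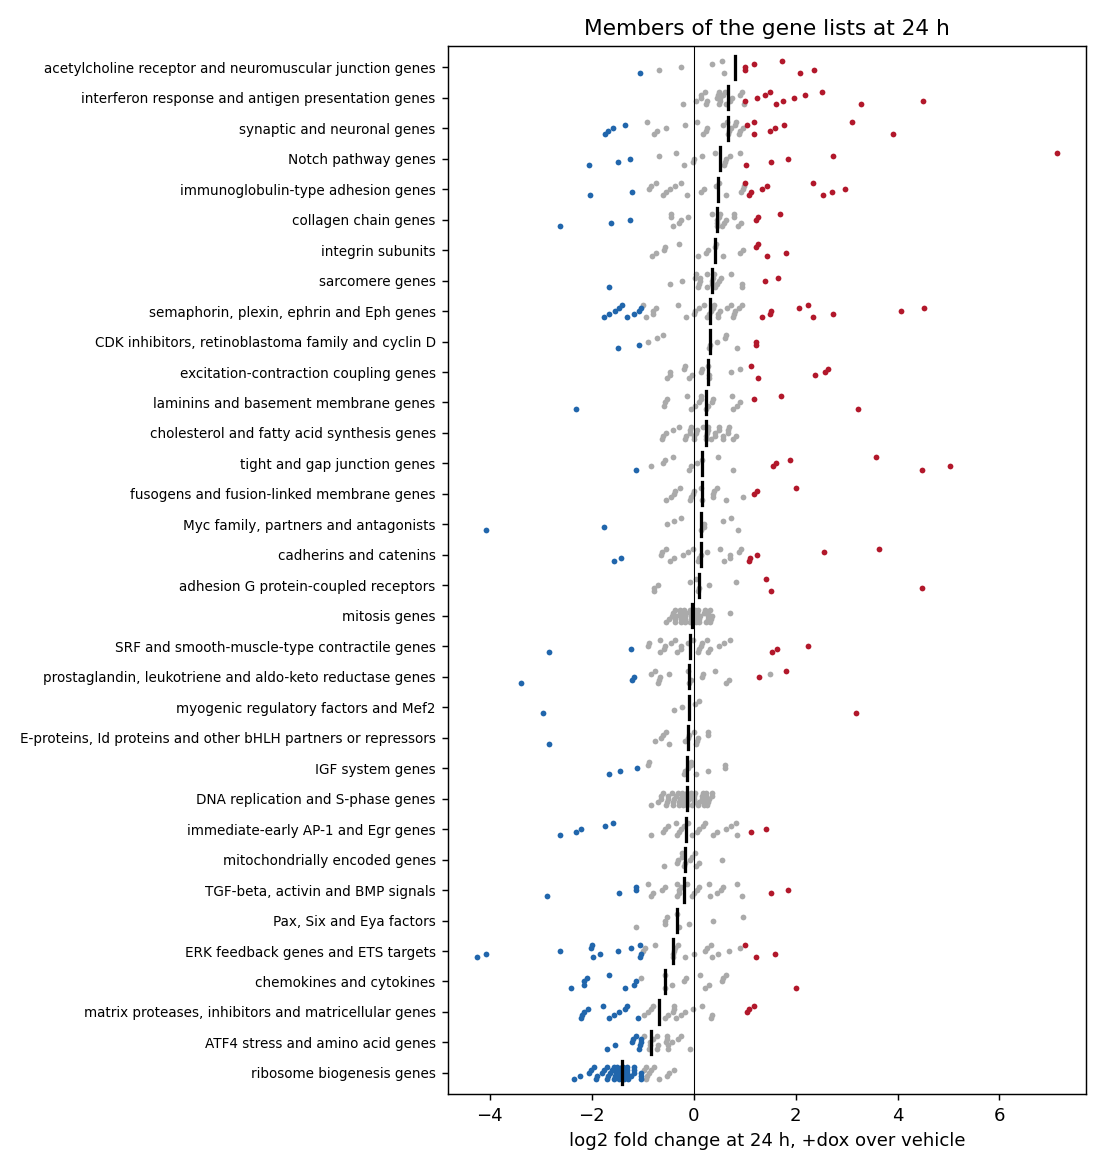
Log2 fold changes at 24 h, +dox over vehicle, of every tested member of the 34 lists, ordered by the list's median (black bar). Red points were called up, blue down, grey neither; the ribosome biogenesis list lies wholly below 0 with a median of -1.40, and the mitosis list is narrow around -0.04.

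Above an average of 200 CPM, the named changes upward were smaller than those downward. Among the 5 largest increases were Pkd1 (0.89 ± 0.08), Pbxip1 (0.76 ± 0.05), Wdr6 (0.75 ± 0.05) and the protein kinase A subunit Prkaca (0.71 ± 0.05), all under 2-fold. Scaled to the total count, Pkd1 (1.15), Pbxip1 (1.02) and Wdr6 (1.01) exceeded it. The exons of Pkd1 overlap those of Tsc2 on the opposite strand by 693 bases. The 5 largest decreases were Csf1, the glutathione transferase Gsta4, the heme oxygenase Hmox1, Nid1 and Spp1, all between -2.15 and -2.40. Gsta4 was at 86.3, 81.1 and 90.7 CPM with dox and 418, 444 and 511 CPM with vehicle (log2 fold change -2.39 ± 0.08, adjusted p = 5.6e-10). Hmox1 was at 95.2, 92.1 and 101 CPM with dox and 486, 506 and 498 CPM with vehicle (log2 fold change -2.35 ± 0.06, adjusted p = 6.4e-11).

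Calls near the 2-fold threshold depended on scaling or on single libraries. Scaled to the total count, the log2 fold changes of Col1a2 (-0.987), Ncl (-0.901), Gdf15 (-0.877) and Gja1 (-0.861) were under 2-fold, and H2-K1 (1.02) was over it. That scaling also took Fn1, Epha2, Etv5, Slc7a5 and Rrp1b under 2-fold (-0.76 to -0.82). Fn1, the matrix protein fibronectin, was at 2154, 2245 and 1997 CPM with dox and 4925, 5118 and 3729 CPM with vehicle (log2 fold change -1.08 ± 0.10, adjusted p = 2.3e-06), and its log2 fold change was -0.9954 without vehicle replicate 2. Epha2 (-1.02 ± 0.07) went to -0.963 without dox replicate 3 and to -0.992 without vehicle replicate 2, Etv5 (-1.05 ± 0.15) to -0.961 and -0.923 without the same libraries, and the amino acid transporter Slc7a5 (-1.04 ± 0.06) to -0.994 without vehicle replicate 2. Rrp1b of the ribosome list (-1.03 ± 0.07) went to -0.964 without vehicle replicate 1. Tapbp (1.00 ± 0.07) went to 0.941 without vehicle replicate 1, 0.970 without dox replicate 3, 0.990 without dox replicate 2, 0.958 in the fit on 12 libraries and 0.9994 without the filter. Of genes at low counts, Adgrv1 (1.42 ± 0.44) lost its call without dox replicate 3 (adjusted p = 0.055) and fell to 0.996 without vehicle replicate 3. Igf2bp3 differed widely between replicates, at 0.0294, 0.0784 and 0.669 CPM with dox and 1.15, 0.732 and 0.975 CPM with vehicle, and its call was lost without dox replicates 1 or 2 or any vehicle library (adjusted p between 0.066 and 0.13). Igf2bp3 shares 1529 exonic bases with Malsu1 on the opposite strand.

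The same treatment in growth medium gave fewer calls. At 0 h, 394 of 13550 genes tested (2.91%) were up and 184 (1.36%) were down. The upregulated genes of both times shared 291 genes, 25.8% of those at 24 h and 73.9% of those at 0 h, and the downregulated genes shared 69, 9.56% and 37.5%. The libraries of the 2 comparisons are separate, but the 24 h wells were seeded with more cells and were in another medium. The 0 h libraries were also all shallower, at 16241606 to 22238857 counts, and the part of depth in the number of calls was not tested. The difference between the dox effects was tested as an interaction over all 12 libraries: of 14448 genes, 408 (2.82%) had a dox effect higher at 24 h by more than 1 on the log2 scale and 382 (2.64%) had one that was lower. On the total count scale these were 721 and 225.

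Several genes with a larger dox effect at 24 h had their lowest levels in the 24 h vehicle libraries. Itga3 was at 356, 341 and 345 CPM with dox and 409.8, 408 and 407 CPM with vehicle at 0 h, where dox lowered it slightly (log2 fold change -0.24), and the vehicle level at 24 h was far lower, at 55.6 to 59.7 CPM. The difference between the effects was 1.46 ± 0.07 (adjusted p = 1.4e-10). Dock8, an exchange factor for Cdc42, was at 31.4, 28.1 and 22 CPM with dox and 27.8, 25.2 and 23.4 CPM with vehicle at 0 h, with overlapping groups, and at 25.9, 22.3 and 21.3 CPM with dox and 5.22, 4.2 and 4.01 CPM with vehicle at 24 h (difference 2.25 ± 0.18, adjusted p = 7.1e-08). Its dox libraries were thus at similar levels at both times. Atp1b2, a subunit of the sodium pump, was at 24.4, 19.1 and 19.6 CPM with dox and 3.62, 3.63 and 3.25 CPM with vehicle at 0 h, and at 8.28, 9.72 and 9.99 CPM with dox and 0.221, 0.154 and 0.188 CPM with vehicle at 24 h, the largest such difference upward among genes averaging 5 CPM or more over the 12 libraries (3.00 ± 0.29, adjusted p = 6.1e-07). Cdh15 rose by similar amounts, 1.06 at 0 h and 1.25 at 24 h, and the difference did not pass the test (0.15 ± 0.07, adjusted p = 0.14).

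Several genes with a lower dox effect at 24 h were ones whose vehicle level was higher at 24 h. Rgs2 was at 4.78, 8.19 and 5.87 CPM with dox and 8.43, 8.84 and 10.4 CPM with vehicle at 0 h, against at least 203 CPM with vehicle at 24 h, and the effects differed by -3.72 ± 0.18 (adjusted p = 1.4e-10). Myc was at 17.3, 16.4 and 17.5 CPM with dox and 30.2, 32.7 and 38.1 CPM with vehicle at 0 h, and its effects differed by -3.13 ± 0.12 (adjusted p = 1.2e-11). Atf3 was at 1.32, 1.58 and 1.69 CPM with dox and 0.437, 0.684 and 0.681 CPM with vehicle at 0 h and was upregulated there (log2 fold change 1.32), opposite to its decrease at 24 h. Only Atf3 and Mycl were called up at 0 h and down at 24 h, and no gene the other way round. Nid1 did not change at 0 h beyond its spread (0.01, adjusted p = 0.95) and fell at 24 h. In the ribosome biogenesis list, the median effect was -0.45 at 0 h and -1.40 at 24 h, all 54 members had the lower effect at 24 h with an interaction past the p threshold (beside 20.7% of all genes), and 25 differed by more than 1.

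Mymk, for which no effect was seen at 24 h, was upregulated at 0 h from 0.0625, 0.368 and 0.419 CPM with vehicle to 1.24, 1.17 and 1.69 CPM with dox (log2 fold change 2.19, adjusted p = 0.0018), and the difference between the effects passed the test (-2.23 ± 0.50, adjusted p = 0.0023). Extl1, a glycosyltransferase of heparan sulfate, had the same course: it was at 2.13, 2.14 and 2.33 CPM with dox and 0.125, 0.316 and 0.105 CPM with vehicle at 0 h, and at 19.4, 18.8 and 18 CPM with dox and 14.3, 18.5 and 14.7 CPM with vehicle at 24 h (difference -3.32 ± 0.34, adjusted p = 1.4e-06). All 6 Extl1 libraries at 24 h lay above the 0 h dox libraries, as did 5 of the 6 Mymk libraries, and vehicle replicate 1 lay within their range.

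**Figure D4:**
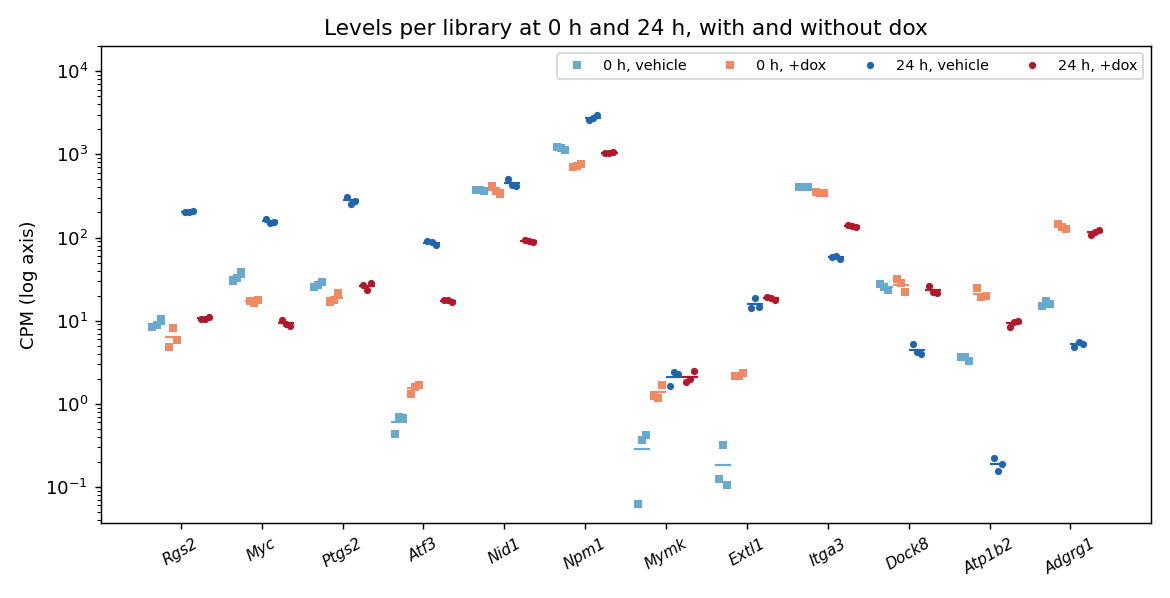
Levels in CPM on a log axis of 12 genes in the 3 libraries of each of 4 groups, vehicle and dox at 0 h (squares) and at 24 h (circles), with a bar at each mean. Rgs2, Myc, Ptgs2 and Atf3 are highest in the 24 h vehicle libraries, and Itga3, Dock8, Atp1b2 and Adgrg1 are lowest in them.

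**Figure D5:**
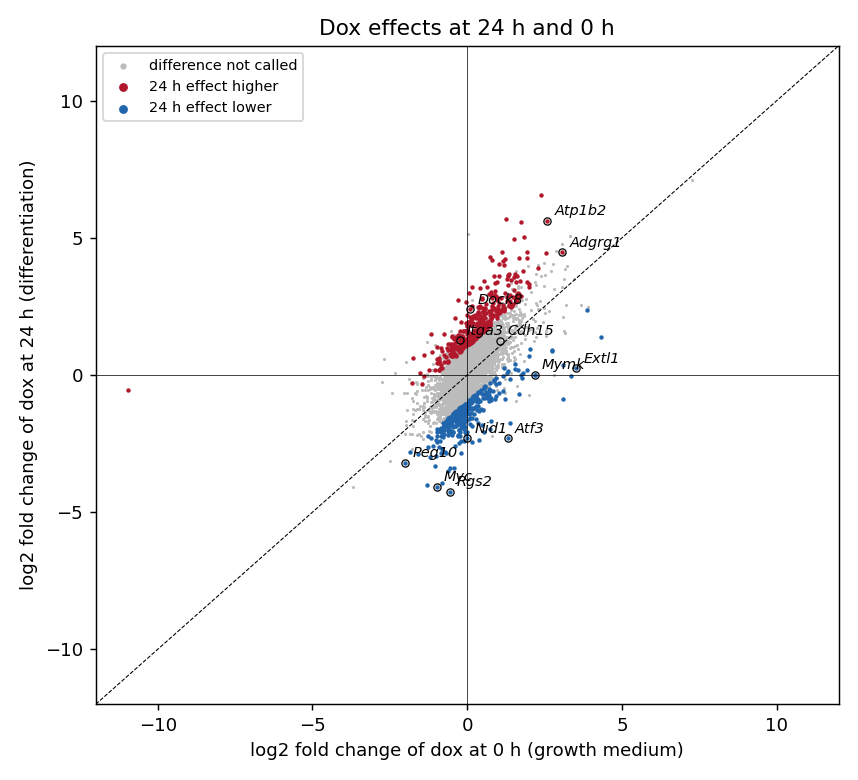
Log2 fold change of dox at 24 h against that at 0 h for the 13220 genes tested at both times, with the line of equal effects dashed. Red marks 371 genes with a higher and blue 334 with a lower effect at 24 h by the interaction test; Atf3 is at 1.32 and -2.31, Extl1 at 3.53 and 0.26.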

How the data were processed

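Poly(A) RNA of C2C12 iMyoD1 cells had been sequenced in paired-end reads, and the authors ran nf-core/rnaseq on the reads. They deposited estimated counts per transcript, and the table with these libraries held 109617 transcripts of 45706 genes, with 34.4% of the values not whole. Tables with other libraries of the series were not used here. The annotation release and strandedness are not given in the sources used here. Columns were matched to libraries by the labels' descriptions, transcripts were summed per gene and rounded, and genes were matched to GENCODE vM21 (GRCm38) for position and exon overlap.

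Genes with low counts were removed by filterByExpr. The comparison of dox with vehicle at 24 h used edgeR's quasi-likelihood test (edgeR 4.0.16, R 4.3.3) on the 6 libraries with TMM scaling and Benjamini-Hochberg adjustment over all genes tested. A gene was called when it passed both a 2-fold change and an adjusted p of 0.05. The same test was run at 0 h, and the difference between both dox effects was tested as an interaction over 12 libraries, called past 1 on the log2 scale. The labels call the libraries biological replicates, and the p-values measure the spread between them. An exact permutation test of 3 against 3 cannot go below p = 0.1 and was not used. At 23424043 to 42023433 counts per library, 3 counts, the floor used for genes at 0, were between 0.0669 and 0.133 CPM at 24 h; such floors cover counting error only. Replicates differed beyond sampling noise (chi-square per gene 5.2 to 18.4), so none was counted as a duplicate. On simulated counts of the 24 h comparison, the test recovered 195 of 200 genes changed 2.5-fold and 200 of 200 changed 4-fold, with 5 and 7 false calls among 14078 genes. For the interaction, 200 of 200 differences of 4-fold were recovered with 2 false calls among 14448. The changed genes were drawn only from genes above a minimum level and were split evenly between the directions. Recovery of genes at low counts, or under a shift in one direction, was therefore not simulated.

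Genes were named by a rule: genes that the study followed (Myod1, Myog, Mymk, Mymx, Cdh23, Cadm4, Itga3, Mcam and Cdh15), the 8 largest changes in each direction at a mean of at least 5 CPM and the 5 largest at a mean of at least 200 CPM (adjusted p under 0.05, no overlap between groups), the called members with the largest and smallest log2 fold change and the 2 members with the highest CPM of each of 34 lists, and the 5 largest interactions in each direction. Other list members in the text (Pax7, Chrnb1, Musk, Rapsn, Ache, Ryr1, Stac3, Celsr1, Itgb4, Nectin2, Bcam, Gja4, Dlg4, Mapt, Gap43, Fosl1, Fosl2, Klf6, Arc, Dusp4, Spry1, Areg, Ereg, Plaur, Dkc1, Nop56, Cdkn2d, Gdf11, Col16a1, Lamb3, Vcan, Sema5a, Plxnd1, Efna2, Efna3, Epha4, Ddx58, Dhx58, Ccl7, Cxcl1, Lyz2) were named after their values were seen. Some genes that the rule names are not reported here. The comparison and the lists were chosen with earlier results of these data known. Alternatives were DESeq2 1.42.0, its size factors, no filter, a fit on all 12 libraries, a replicate block, leaving out each library, no fold threshold and, added after seeing the data, scaling to the total count.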

Additional observations from a re-analysis of the deposited data

Results flagged for a closer look

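The results here are those in which the effect of dox at 24 h and that at 0 h differed by the interaction test (edgeR, over 12 libraries), given as the 24 h effect minus the 0 h effect on the log2 scale. Groups held 3 libraries each, so no single library could be tested as standing apart. Among adhesion and fusion genes the difference was 2.27 for Cdh23, 1.25 for Cadm4, 1.46 for Itga3, 1.39 for Mcam and -2.23 for Mymk. Among the other genes with large increases at 24 h it was 1.35 for Adgrg1, 1.59 for Slc17a7, 1.43 for Erbb3, 1.18 for Sgca, 1.96 for the kinesin light chain Klc3 and 2.08 for Clmn, a calponin-like membrane protein. Klc3 shares 744 exonic bases with Ercc2 on the opposite strand.

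Among genes with large decreases at 24 h the difference was -3.72 for Rgs2, -3.13 for Myc, -2.88 for Ptgs2, -2.31 for Sp8, -1.23 for Peg10, -2.0 for Myf5, -1.34 for Grem1, -2.05 for Cited2 and -3.66 for Atf3. For Atf3 the effects had opposite signs.

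Among genes averaging 5 CPM or more over the 12 libraries, the largest differences upward beside those above were 3.0 for Atp1b2, 2.25 for Dock8, 2.22 for the neuronal intermediate filament Prph and 2.0 for the stromal glycoprotein Cd248. With the same limit, the largest downward beside those above were -3.41 for the cytochrome P450 gene Cyp4b1, which at 0 h was below the filter on low counts, and -3.32 for Extl1.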

How the results depend on the processing

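The counts of genes up and down at 24 h lay within 1.5 times those given above under DESeq2 (1144 and 734), its size factors, no filter (1390 and 872) and the fit on all 12 libraries, and between 1093 and 1229 and between 708 and 796 when each library was left out. Without the fold threshold they were 4382 and 4462. Scaled to the total count they were 1760 and 427, and the interaction gave 721 higher and 225 lower effects; leaving out each library gave 362 to 446 and 366 to 377. Same-numbered libraries correlated at 0.0072, 0.066 and -0.0069 in their deviations, so the numbers did not pair them, and with a replicate block the counts were 1125 and 709 and, for the interaction, 401 and 367. Tapbp lost its call without the filter (0.9994) and with all 12 libraries (0.9584). The calls of the 149 named genes were those of the main test under DESeq2, its size factors and the block.

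Scaled to the total count, 11 named genes lost their call (Col1a2, Epha2, Etv5, Fn1, Gdf15, Gja1, Igf2bp3, Igfbp4, Ncl, Rrp1b and Slc7a5) and 5 gained one (Adgre5, H2-K1, Pbxip1, Pkd1 and Wdr6), and some small decreases turned to log2 fold changes above 0: Myod1 (0.0359), Eya3 (0.1793), Tcf12 (0.1651), Atp2a2 (0.09791), Ctnna1 (0.05246), Kirrel (0.005634), Tjp1 (0.1614), Sypl (0.1027), Mga (0.007019), Igfbp6 (0.2168) and mt-Cytb (0.2313). With all 12 libraries, Mymk (-0.03791), Tcf3 (-0.03912) and Scd2 (-0.04433) changed sign, as did Scd2 without the filter (-0.003357). Leaving out each library, values near 0 changed sign within -0.1371 to 0.1205 for Mymk, -0.02299 to 0.02744 for Tcf3, -0.1026 to 0.003959 for Igfbp6, -0.02055 to 0.1951 for Hspg2, -0.03571 to 0.04955 for Scd2, -0.09585 to 0.02127 for mt-Cytb and -0.238 to 0.4882 for the interaction of Mymx. The cause was not tested. At 24 h, 3 counts were 0.0669 to 0.133 CPM, so lower levels could not be told from 0 in a library. The share of promoters with an E-box was not compared between gene groups because windows covered 819 of 1129 genes up and 490 of 722 down.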

Other observations

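Some gene groups that no comparison above covers were chosen after the values were seen, and they are given as descriptions of these libraries. Targets of NRF2, the factor of the response to oxidants, were lower with dox at 24 h in 15 of 19 genes at the p threshold, beside 31.7% of all genes. Past 2-fold, 9 fell and 1 rose, beside 5.13% and 8.02% of all genes, with a median log2 fold change of -0.999. Among them was Hmox1, described above, and Gsta1, a glutathione transferase, at 18.4, 16.3 and 18.4 CPM with dox and 117, 121 and 141 CPM with vehicle (log2 fold change -2.81 ± 0.08, adjusted p = 2e-10). Sqstm1, an autophagy receptor, was at 1769, 1698 and 1714 CPM with dox and 4889.9, 4672 and 4732 CPM with vehicle (log2 fold change -1.44 ± 0.06, adjusted p = 1.5e-09). In neither gene did the groups overlap.

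None of 78 cytosolic ribosomal protein genes was called by edgeR, but 76 passed the p threshold downward, beside 31.7% of all genes, with a median of -0.56, a smaller decrease than that of the ribosome biogenesis genes. All 16 genes of nucleotide and polyamine synthesis passed it downward as well, 5 of them past 2-fold, beside 5.13% of all genes (median -0.87), among them Odc1, the first enzyme of polyamine synthesis, at 163, 159 and 165 CPM with dox and 354, 333 and 354 CPM with vehicle (log2 fold change -1.08 ± 0.05, adjusted p = 7e-09). Of 20 aminoacyl-tRNA synthetases, 19 were lower and 1 higher at the p threshold, beside 31.7% and 31.1% of all genes, and 1 was called down, at about the 5.13% of all genes (median -0.49). Of 22 heat shock and chaperonin genes, 4 were called down and none up, beside 5.13% and 8.02% of all genes (median -0.55). Of 24 lysosome and autophagy genes, 3 were called up and none down, beside 8.02% and 5.13% of all genes (median 0.15), among them Tfeb, a regulator of lysosome genes, at 20.6, 23.3 and 21.9 CPM with dox and 9.68, 9.17 and 8.82 CPM with vehicle (log2 fold change 1.27 ± 0.09, adjusted p = 1.4e-07).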
